A study of Mus musculus with 4 samples.

Results

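Macrophages rich in Mmp12 and Mmp13 RNA were examined among CD11b+ cells sorted from MC38 tumors, a transplanted mouse colon carcinoma. A cell entered when it held at least 10 UMIs (unique molecular identifiers, counted RNA molecules) of C1qa, C1qb and C1qc together and at least 5 UMIs of Mmp12 and Mmp13 together. Cells with 10 or more UMIs of the neutrophil genes S100a8 and S100a9, 5 or more of the NK cell genes Ncr1, Klrb1c, Gzma and Prf1, or 2 or more of the dendritic cell gene Cd209a were left out. The rule found 305 cells among 25333 kept cells, 99 of 10193 in the WT library and 206 of 15140 in the VISTA KO library. They are called Mmp12/Mmp13 macrophages here, because the rule adds both genes and many cells held no Mmp13 UMI. They are compared with C1q macrophages, the 1939 WT and 5102 VISTA KO cells that met the same limits but held fewer than 5 Mmp12 and Mmp13 UMIs.

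Both groups came from bone marrow chimeras of C57/BL6 mice, made with WT or VISTA KO marrow and given MC38 tumors after 6 weeks of reconstitution. VISTA, encoded by Vsir, is an inhibitory receptor of myeloid cells and T cells. Tumors of 9 to 10 mm were pooled before digestion, and CD45.1 and CD45.2 antibodies told WT from KO cells. Viable CD11b+ cells were sorted and run on the 10x Genomics v3.1 platform, which reads 3 prime ends, together with antibodies to CD11c, Ly6G and Ly6C that carry countable tags. The sources used here do not give the number of pooled mice, the deleted part of Vsir or the CD45 allele of each genotype, and cells of the host can remain in a chimera. Each group held 1 library, so there was no replicate check and no test. All 95% intervals cover counting error only.

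Matrix metalloproteinases are secreted or membrane-bound enzymes that cut extracellular matrix. Mmp12, the macrophage metalloelastase, cuts elastin, and Mmp13, a collagenase, cuts fibrillar collagen. Macrophages that take up dead cells, lipid or red cells commonly turn on genes of heme breakdown, lipid handling and the lysosome, and in tumors such cells often carry Spp1, which encodes the matrix protein osteopontin. Interferon gamma drives another macrophage state, with antigen presentation by MHC class II and the chemokine Cxcl9.

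Mmp12 and Mmp13 neighbour each other on chromosome 9, and the 120 bases before their annotated starts are shown because the rule rests on these genes. RefSeq gave 2 starts for Mmp12 and 1 for Mmp13 on GRCm38.p6, all on the plus strand. Capitals mark TGANTCA, the core motif of activator protein 1 (AP-1), which reads the same on both strands.
Mmp12, first start, chr9:7344277-7344396: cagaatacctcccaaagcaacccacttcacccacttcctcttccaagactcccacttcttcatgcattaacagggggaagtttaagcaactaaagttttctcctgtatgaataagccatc
Mmp12, second start, chr9:7347254-7347373: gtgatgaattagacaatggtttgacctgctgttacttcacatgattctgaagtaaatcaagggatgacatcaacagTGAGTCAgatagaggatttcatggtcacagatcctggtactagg
Mmp13, chr9:7272394-7272513: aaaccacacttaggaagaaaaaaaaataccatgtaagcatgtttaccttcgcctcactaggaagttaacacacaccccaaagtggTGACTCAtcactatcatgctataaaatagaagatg
A match began 44 bases before the second Mmp12 start and 35 bases before the Mmp13 start. The motif stood in the 250 bases before 6.75% of 32851 annotated starts, and in none of the windows before Spp1, Cd36 and Gpnmb. No entry was found for Hmox1 and Lpl, so the bases before their starts were not searched for the motif. A match of letters is a description and no evidence of binding. Of 26 measured transcription factors of AP-1 and related families, 2 were called higher and 1 lower in Mmp12/Mmp13 macrophages than in C1q macrophages of both libraries, by the size rule given further down.

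The Mmp12 and Mmp13 levels themselves were fixed by the rule and are given as a description. The cells held a median of 11 UMIs of both genes together in WT (5 to 102) and 10 in VISTA KO (5 to 99). Mmp12 stood at 1286 UMIs per 1000000 (CPM; 1216 to 1360) in WT and 1254 (1206 to 1303) in VISTA KO, and was found in 94.9% and 97.1% of the cells. Mmp13 stood at 261.2 CPM (229.9 to 295.6) and 224.8 (204.9 to 246.1), and was found in 58.6% and 55.3%. Both genes were therefore detected in 53 cells of the WT library (53.5%, 43.2 to 63.6) and in 108 of the other (52.4%, 45.4 to 59.4). Mmp12 without Mmp13 was seen in 41 and 92 cells, and Mmp13 without Mmp12 in 5 and 6. The spread was wide, and no single cell made up more than 7.44% of the Mmp12 UMIs of its library.

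**Figure D1:**
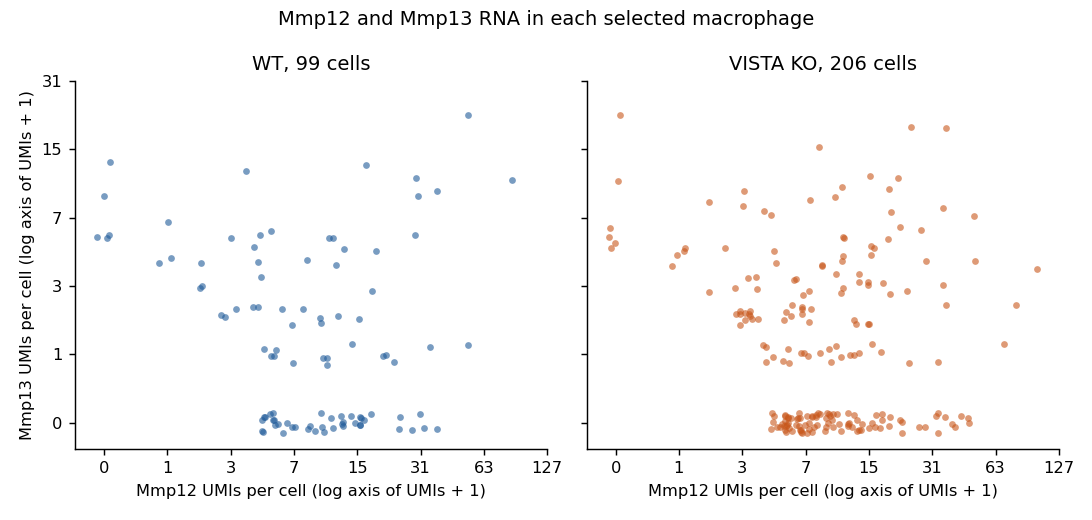
Mmp12 UMIs (horizontal) against Mmp13 UMIs (vertical) of each Mmp12/Mmp13 macrophage, on log axes of UMIs + 1 with a small random shift, in the WT library (99 cells, left) and the VISTA KO library (206 cells, right). The row at 0 holds 41 WT and 92 VISTA KO cells without a Mmp13 UMI, and few cells lie at 0 Mmp12 UMIs.

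The other genes named for these cells, Hmox1, Spp1 and Cd36, were not used by the rule. They were named with earlier results of these data known, so their levels are a description as well. Hmox1, heme oxygenase 1, which breaks down heme, stood at 1438 CPM (1363 to 1516) in WT and 1100 (1055 to 1146) in VISTA KO, against 336.5 and 226.1 in C1q macrophages. Spp1 stood at 2545 (2445 to 2648) and 1907 (1848 to 1968), against 696.2 and 485.2. Cd36, a scavenger receptor for lipids, stood at 201.9 (174.5 to 232.4) and 98.7 (85.7 to 113.2), against 54.1 and 33.1. These genes were thus higher than in C1q macrophages in each library, with log2 ratios of 2.10 and 2.28 for Hmox1, 1.87 and 1.98 for Spp1 and 1.91 and 1.58 for Cd36 (WT, then VISTA KO). Macrophage markers outside the rule were found too. Csf1r, the receptor of the macrophage growth factor, was in 79.8% and 86.4% of the cells, and after thinning to 2000 UMIs in 41.8% and 44.3% against 7.06% and 10.4% of NK-gated cells. Cd68 was in 63.3% and 65.7% of thinned cells against 6.76% and 15.3%, and the surface marker Adgre1 in 21.4% and 16.9% against 1.18% and 5.76%. Other cells of the sort carried these markers too. In thinned C1q macrophages the shares were 43.6% and 54.6% for Csf1r, 58.4% and 59.6% for Cd68 and 23.1% and 26.3% for Adgre1. In thinned cells under both the C1q and the Mmp limit they were 36.1% and 47.5%, 43.0% and 48.1%, and 10.4% and 14.6%. Of 23 macrophage identity genes, by the size rule given further down, 2 were called higher and 5 lower than in C1q macrophages (medians -0.09 in WT and -0.24 in VISTA KO).

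Cells were thinned to 2000 UMIs to compare shares of cells with a UMI across depths, which left out 1 WT and 5 VISTA KO cells. Mmp12 was then found in 78.6% and 80.1% of Mmp12/Mmp13 macrophages, in 2.72% and 2.32% of C1q macrophages and in 0.588% and 2.02% of NK-gated cells, which should lack it. The rule fixed the contrast of Mmp12 with C1q macrophages, so these shares are a description. Hmox1 was found in 62.2% and 50.2% of Mmp12/Mmp13 macrophages (81.8% and 78.2% unthinned), 25.9% and 22.4% of C1q macrophages and 3.53% and 6.92% of NK-gated cells. Spp1 was found in 67.3% and 65.7%, in 29.7% and 27.6% and, in NK-gated cells, still in 19.1% and 20.2%. Median depths were 8511 and 9342 UMIs in Mmp12/Mmp13 macrophages, 6088 and 5797 in C1q macrophages and 2314.5 and 2609.5 in NK-gated cells. Mmp12/Mmp13 macrophages were the deeper cells, and the rule counts raw UMIs. Their median share of mitochondrial UMIs, 0.672% and 0.745%, was slightly below the 0.835% and 0.985% of C1q macrophages.

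Markers of other cell types were summed as a check. The T and B cell list summed to 41.6 CPM for WT and 20.6 for VISTA KO, with Cd8a, Cd79a and Ms4a1 at 0 in both libraries. The fibroblast and endothelial list summed to 35.4 and 45.5, with Col1a1, Pdgfra and Pdgfrb at 0. The epithelial list summed to 18.7 and 28.8, against 8.72 and 19.7 in C1q macrophages, with Krt18, Krt19 and Cldn7 at 0. Its only measured gene, the adhesion gene Cdh1, was called higher than in C1q macrophages (1.16 and 0.48), and the part of tumor cell RNA in the results was not tested. The list of mast cells, basophils and eosinophils summed to 4.16 and 4.79. The neutrophil list summed to 384.03 and 312.45, against 456.99 and 206.95 in C1q macrophages, with Ngp and Camp at 0 in both. Of its 8 measured genes, 1 was called higher than in C1q macrophages and 0 lower (medians -0.17 in WT and 0.79 in VISTA KO). The NK list summed to 346.56 and 1115.6, of which Ccl5, which macrophages also express, made up 283.1 and 1064. The dendritic cell list summed to 393.4 and 449.5, against 162.7 and 181.4 in C1q macrophages. Of that list, Flt3, Clec9a and Siglech were at 0 in both libraries, while the lectins Mgl2 and Clec10a and the surface protein Cd24a were called higher than in C1q macrophages. Of the osteoclast list, Calcr and Oscar were at 0, while the fusion gene Dcstamp (log2 ratios 3.26 and 3.65) and the proton pump subunit Atp6v0d2 (4.55 in WT) were called higher from few UMIs: 27 and 39 of Dcstamp, found in 13.1% and 7.28% of cells, and 15 and 19 of Atp6v0d2, found in 6.06% and 4.37%. Whether these cells are dendritic, osteoclast-like or doublets was not tested.

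The limit of 5 UMIs cut through a continuous range. C1q-positive cells with 4 Mmp12 and Mmp13 UMIs, just outside the rule, held 1312 CPM of Hmox1 in WT (22 cells) and 939.7 in VISTA KO (32 cells). Those with 5 UMIs, just inside it, held 1475 (16 cells) and 859.1 (34 cells). Lpl stood at 30.8 just outside and 570.5 just inside in WT, but in VISTA KO it was lower just inside, at 57.1. From 0 through 1 to 4 and 5 to 9 to at least 10 UMIs, Hmox1 stood at 287.5, 687.7, 1296 and 1568 CPM in WT and at 183.6, 554.7, 951.9 and 1207 in VISTA KO. Spp1 stood at 583.3, 1506, 1749 and 3268 in WT and at 411.9, 1052, 1418 and 2263 in VISTA KO. Each step of Hmox1 and Spp1 was upward in both libraries. Cd36 stood at 44.8, 120.5, 192.3 and 210.6 in WT but at 28.5, 68.5, 55.8 and 129.9 in VISTA KO, so its step into the rule was downward there, within overlapping intervals (60.6 to 77.0 and 41.3 to 73.8). Ly6c2, a gene of inflammatory monocytes, stood at 2806, 2147, 1517 and 1115 in WT and 2422, 1796, 1553 and 1272 in VISTA KO, so each of its steps was downward. Aif1, an actin-binding protein of macrophages, also stepped down throughout, from 1128 to 462.9 in WT and from 1228 to 604.1 in VISTA KO. Pf4, the chemokine platelet factor 4, peaked at 5 to 9 UMIs in WT (4151) but at 10 or more in VISTA KO (2320), and Arg1, the arginine-degrading enzyme arginase 1, stepped up from 2067 to 3387 and from 2154 to 3577.

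**Figure D2:**
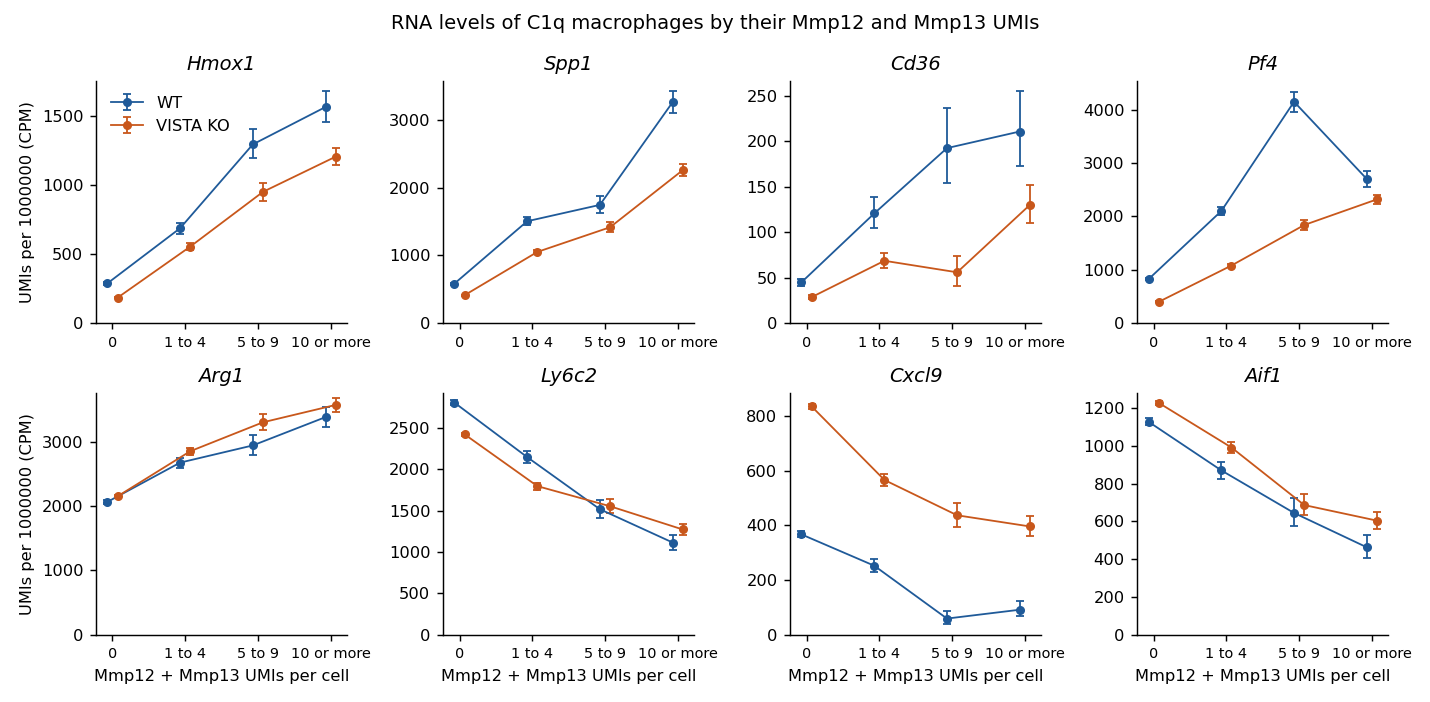
Levels of 8 genes (CPM, linear axes from 0) in C1q-positive macrophages grouped by their Mmp12 and Mmp13 UMIs, WT in blue and VISTA KO in orange, with exact Poisson intervals of counting error. The 2 right-hand groups of each panel are the Mmp12/Mmp13 macrophages; Hmox1 and Spp1 step up, Cd36 steps down once in VISTA KO, and Ly6c2 and Aif1 step down in both libraries.

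Genes were then compared between Mmp12/Mmp13 macrophages and C1q macrophages of the same library. A gene was called where its log2 ratio was at least 1.5-fold and its counting interval left out 1, among 3612 genes with at least 100 UMIs in the Mmp12/Mmp13 macrophages of both libraries together. In both libraries at once, 121 genes were called higher (3.35%) and 34 lower (0.941%). These calls rest on size and counting error alone. In single libraries the shares were 5.29% higher and 4.71% lower in WT, and 4.51% and 1.55% in VISTA KO. Mmp12 and Mmp13, which the rule used, are among the 121. A minimum of UMIs in the Mmp12/Mmp13 macrophages favours genes that are high there: with the same minimum on the mean of both groups, 105 of 3641 genes were higher and 43 lower. With C1q macrophages drawn to match depth the counts were 123 and 29. The lower count depended most on the settings, with 107 genes when cells were weighted equally, 71 without cells above the 95th percentile of UMIs and 61 without the top cell of each gene. For lists of genes the ratio had to be at least 25% above 1, or as far below it on the log scale, with at least 20 UMIs. Over all 7850 such genes this called 4.0% higher and 3.35% lower in both libraries.

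Among genes of heme breakdown, iron and oxidative stress, 16 of 21 were called higher and 0 lower, with medians of 1.19 in WT and 0.89 in VISTA KO. Beside Hmox1, Gclm, the modifier subunit of the glutathione-making enzyme, stood at 197.7 CPM in WT against 41.9 in C1q macrophages (log2 ratio 2.24) and at 122.7 against 29.7 in VISTA KO (2.05). Mt1 and Mt2, metallothioneins that bind metal ions, had ratios of 2.01 and 2.44 in WT and 2.15 and 3.23 in VISTA KO. Mt1 was found in 96.0% and 92.2% of the cells, against 53.6% and 52.3% of C1q macrophages. Srxn1, sulfiredoxin, was at 1.78 and 1.27, and Txnrd1, thioredoxin reductase 1, at 1.19 and 0.71. The transcription factor Nfe2l2 (NRF2), which drives many of these genes, was at -0.13 and -0.07, and its competitor Bach1 at -0.37 and -0.09, and neither was called in both libraries.

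Lipid genes also leaned upward, with 13 of 25 called higher and 0 lower (medians 0.54 and 0.39). Lpl, lipoprotein lipase, stood at 354.9 CPM against 63.7 in WT (2.48) and at 99.7 against 28.8 in VISTA KO (1.80). Gpnmb, a glycoprotein of lipid-loaded macrophages, came after Mmp12 and Mmp13 when genes with at least 100 UMIs were ranked by their lower ratio of both libraries, at 2.96 and 3.22, though it was found in only 19.2% and 24.3% of the cells. Trem2, a lipid-sensing receptor, was at 0.56 and 0.39. Apoe, the apolipoprotein, was not called, at -0.01 and -0.27. Hypoxia and angiogenesis genes had 19 of 28 called higher and 1 lower (medians 0.59 and 0.65). Among them were Egln3, an oxygen-sensing hydroxylase (1.44 and 1.92), Ndrg1 (1.54 and 1.81), Hilpda, a lipid droplet protein (1.48 and 1.90), and Vegfa, the angiogenic growth factor (0.73 and 0.88). The member called lower was Hif1a, the hypoxia transcription factor, at -0.64 and -0.47 in RNA.

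Lysosomal genes had 8 of 28 called higher and 1 lower, with Ctsl, cathepsin L, at 1434 CPM against 664.6 in WT (1.11) and 1209 against 595.1 in VISTA KO (1.02). Cathepsin S, encoded by Ctss, was at -0.34 and -0.31, which in VISTA KO fell just short of the size rule for lists. Of 15 other metalloproteinases, related proteases and inhibitors, a list without Mmp12 and Mmp13, 5 were called higher, among them Mmp8, Adam8, Plau and Plaur, and 1 lower. Mmp8, the neutrophil collagenase, was found in 23.2% and 27.2% of the cells and stood at 12.1 CPM in WT C1q macrophages (ratio 2.07) and, in VISTA KO, at 46.5 against 11.5 (2.02). The membrane protease Adam8 was at 0.90 and 1.09. Mmp14, the membrane collagenase, was called lower, at -0.37 and -0.47. The remaining genes of the 15 with the highest ratios were Tnfrsf9, the receptor 4-1BB (2.43 and 2.38), Mgl2 (2.18 and 2.06), Pmp22 (2.03 in WT), the neutrophil chemokine Cxcl3 (2.62 in VISTA KO) and Pf4 (1.79 and 2.15). Tnfrsf9 and Cxcl3 came from few cells, 11.1% and 14.6% for Tnfrsf9 and 13.1% and 12.6% for Cxcl3. Mgl2 and Clec10a are close copies, and reads could have been split between them.

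Of 30 type I interferon-stimulated genes 19 were called lower and 0 higher (medians -0.44 in WT and -0.33 in VISTA KO), and of 26 interferon gamma genes 17 lower and 0 higher (medians -0.63 and -0.42). Cxcl9 stood at 76.0 CPM against 353.2 in WT (-2.20) and at 413.6 against 804.9 in VISTA KO (-0.96). Gbp2, an interferon-induced GTPase, was at -1.06 and -0.46, and the antiviral Isg15 at -0.80 and -0.36. Classical monocyte genes had 9 of 22 called lower and 1 higher, with Ly6c2 at 1306 against 2725 CPM in WT (-1.06) and 1390 against 2351 in VISTA KO (-0.76). The other genes among the 10 lowest were Ly6i (-1.74 and -0.88), Ccl8 (-0.91 and -1.35), Aif1 (-0.99 and -0.91), Lpcat2, Limd2, Ctla2b, Calhm6, Plaat3 and AW112010. Most genes of the STAT3 list passed in neither direction, with 3 of 15 called lower, as did most of the arginine, nitric oxide and polyamine list, with 3 of 22 called higher and 2 lower. Arg1 was at 0.57 and 0.63.

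**Figure D3:**
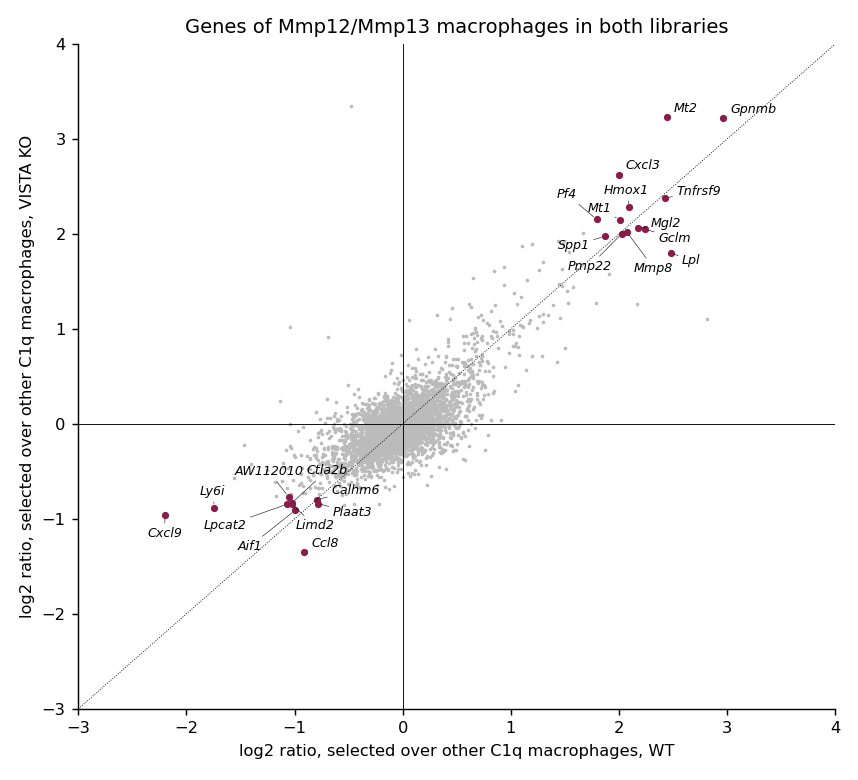
Log2 ratio of Mmp12/Mmp13 macrophages over C1q macrophages in the WT library (horizontal) and the VISTA KO library (vertical) for genes with at least 100 UMIs, each grey point a gene. Mmp12 and Mmp13 lie beyond the axes; the named genes are the others of the 15 highest, with Gpnmb and Mt2 at the top right, and the 10 lowest, with Cxcl9 at the far left, and the dotted line marks equal ratios. The axis titles call the Mmp12/Mmp13 macrophages the selected cells.

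Surface protein was read from antibody tags, which the rule did not use. Each tag is a known oligonucleotide on the antibody, counted like a gene, and the 3 tags were:
CD11c: GTTATGGACGCTTGC
Ly6G: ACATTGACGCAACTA
Ly6C: AAGTCGTGAGGCATG
CD11c, an integrin of dendritic cells and many macrophages, had a median of 36 tag UMIs (27 to 52) per Mmp12/Mmp13 macrophage in WT and 34.5 (27 to 43) in VISTA KO, against 20 (19 to 21) and 23 (22 to 23) in C1q macrophages. Ly6C, the inflammatory monocyte antigen, had medians of 644 (422 to 928) and 832.5 (560 to 1085), against 1475 (1406 to 1576) and 1195.5 (1160 to 1229). Ly6G, the neutrophil antigen, had medians of 9 and 8 against 9 and 6. CD11c was thus higher and Ly6C lower on Mmp12/Mmp13 macrophages of both libraries, although single cells overlapped widely, with quartiles of Ly6C at 245.5 and 1826.5 in WT and at 273.75 and 2089.2 in VISTA KO.

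These differences were set beside depth, since deeper cells carry more tags. C1q macrophages drawn to the same depth had Ly6C medians of 1753 and 1523, farther from the 644 and 832.5 of Mmp12/Mmp13 macrophages, and CD11c medians of 25 and 31, closer to the 36 and 34.5. In VISTA KO the CD11c median of 31 lay inside the interval of Mmp12/Mmp13 macrophages. NK-gated cells had Ly6C medians of 190 and 186 and CD11c medians of 8 and 7. Along the Mmp12 and Mmp13 range the Ly6C median was 1481.5, 1419, 866 and 472 in WT and 1194, 1236, 926.5 and 700.5 in VISTA KO. The CD11c median was 19, 26, 32 and 42 in WT and 22, 32, 34 and 38.5 in VISTA KO. RNA of Itgax, which encodes CD11c, stood at 67.6 CPM in WT against 25.4 in C1q macrophages and at 58.0 against 37.3 in VISTA KO, while NK-gated cells held 68.9 and 62.9.

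**Figure D4:**
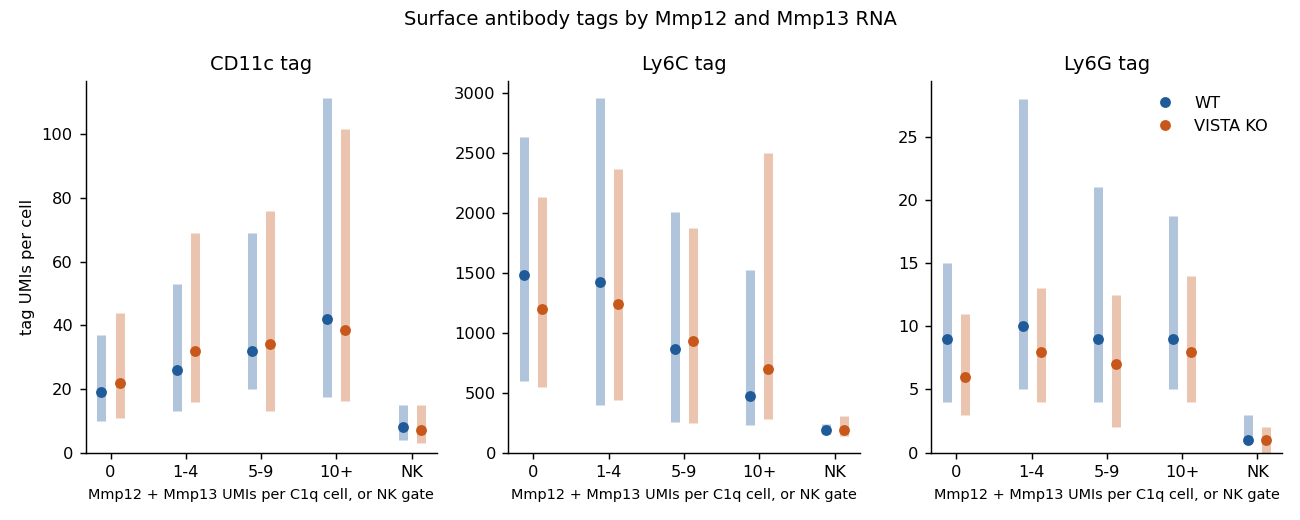
Tag UMIs per cell (linear axes from 0) for CD11c, Ly6C and Ly6G in C1q-positive macrophages grouped by their Mmp12 and Mmp13 UMIs, and in NK-gated cells. Dots are medians and bars run from the lower to the upper quartile, WT in blue and VISTA KO in orange; the Ly6C median is 472 in WT and 700.5 in VISTA KO at 10 or more UMIs.

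Among the Mmp12/Mmp13 macrophages, those with Mmp12 alone differed from those with both genes. This comparison of 41 with 53 WT cells and 92 with 108 VISTA KO cells was described after its values were seen. At 1.5-fold, 23 genes were higher (0.637%) and 17 lower (0.471%) in cells with Mmp12 alone in both libraries, and Mmp13, which defined the split, is among the 17. Mgl2 stood at 456.2 CPM against 93.3 in WT and 536.5 against 174.0 in VISTA KO. Lpl stood at 582.4 against 162.7 and at 139.1 against 68.5, Itgax at 112.9 against 26.0 and at 78.4 against 40.7, and the MHC class II chain H2-Aa at 2022 against 815.4 and at 3105 against 1937. The CD11c tag went with Itgax: its median was 80 (41 to 124) against 25 (18 to 35) in WT and 43.5 (34 to 62) against 28 (25 to 40) in VISTA KO.

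Cells with both genes were higher in another set. Pf4 stood at 4303 CPM against 1884 in WT and 2659 against 1270 in VISTA KO, Ctsl at 1958 against 907.9 and 1519 against 834.5, and Fabp5, a fatty acid binding protein, at 782.9 against 398.6 and 1132 against 551.1. Spp1 stood at 3333 against 1955 and at 2506 against 1283. Hmox1 differed little in WT, at 1538 against 1313, and more in VISTA KO, at 1389 against 797.9. Gpnmb went in opposite directions, at 136.6 in cells with both genes against 24.4 in WT, and 56.5 against 85.8 in VISTA KO. Retnla, a secreted protein of alternatively activated macrophages, stood in cells with Mmp12 alone at 1643 against 6.51 in WT and 68.0 against 0 in VISTA KO, but 1 cell held 41.9% of those WT UMIs and 1 cell 76.9% of those VISTA KO UMIs. In WT, 1 cell also held 36.9% of the Spp1 UMIs of cells with Mmp12 alone. Of WT cells with both genes, the top cell of each gene held 36% of the Lpl, 34.9% of the Mgl2 and 27.4% of the H2-Aa UMIs. For VISTA KO cells with Mmp12 alone, 1 cell held 27.1% of the Lpl UMIs. Median depths were 10132 and 9485.5 UMIs with Mmp12 alone, against 7816 and 8857.5 with both.

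The share of Mmp12/Mmp13 macrophages depended on the denominator and on the exclusions. They made up 0.971% of kept cells in WT (0.790 to 1.18) and 1.36% in VISTA KO (1.18 to 1.56), a ratio of 1.40 (1.10 to 1.80). Of all cells that passed the C1q limit and the exclusions they made up 4.86% in WT (3.97 to 5.88) and 3.88% in VISTA KO (3.38 to 4.44), a ratio of 0.799 (0.626 to 1.03). C1q macrophages were 19.0% of kept WT cells and 33.7% of kept VISTA KO cells. The CD11b+ sort sets which cells could be counted. The exclusions took out unequal numbers, as 200 WT and 261 VISTA KO cells passed both limits before them and the S100a8 and S100a9 limit removed 99 and 50. Without any exclusion the share of kept cells was 1.96% in WT (1.70 to 2.25) and 1.72% in VISTA KO (1.52 to 1.94), so the ratio turned to 0.879 (0.728 to 1.06), and of cells past the C1q limit it was 0.705 (0.584 to 0.852). The libraries share 47 barcodes, and 2 Mmp12/Mmp13 macrophages in each library carried such a barcode.

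VISTA KO and WT cells were next compared within the Mmp12/Mmp13 macrophages. Vsir, the targeted gene, stood at 168.6 CPM (143.6 to 196.7) in WT and 47.4 (38.6 to 57.8) in VISTA KO, a log2 ratio of -1.82 (VISTA KO over WT), and was found in 69.7% and 33.0% of cells. A 3 prime tag outside the deleted part says nothing of the genotype. Of 3612 genes, 168 were called higher (4.65%) and 94 lower (2.60%) in VISTA KO, at 1.5-fold. The median of these genes was -0.003. Without cells above the 95th percentile of UMIs 88 genes were called higher, and 102 with at least 10 Mmp12 and Mmp13 UMIs. Of the 262 called genes, 229 had the same sign in C1q macrophages and 95 were also past 1.5-fold there, while 33 had the opposite sign. Mmp12 itself was at -0.04 (-0.14 to 0.06) and Mmp13 at -0.22 (-0.44 to 0.01), where the rule sets a floor in both libraries.

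The list rule, which called 5.68% of all 7850 genes higher and 4.39% lower, called 15 of 26 interferon gamma genes higher and 0 lower in VISTA KO (median log2 ratio 0.46, against 0.20 in C1q macrophages). Cxcl9 stood at 76.0 CPM for WT and 413.6 for VISTA KO (2.43, 2.10 to 2.81). Gbp2 stood at 261.2 and 438.0 (0.74), and the protease inhibitor Serpina3g was at 1.17. Psmb8 and Psmb9, subunits of the immunoproteasome, were both at 0.03. Of 30 type I interferon-stimulated genes only 2 were called higher and 1 lower, the last being Isg15, at 1184 and 746.1 CPM (-0.67).

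MHC class II genes had 8 of 11 called higher and 0 lower (median 0.80, against 0.73 in C1q macrophages, and 0.317 with at least 10 Mmp12 and Mmp13 UMIs). H2-Aa stood at 1347 CPM for WT and 2495 for VISTA KO (0.89), the invariant chain Cd74 at 3993 and 7207 (0.85), and Ciita, the master regulator of the class, at 22.9 and 43.6 (0.88). In C1q macrophages the ratios of H2-Aa, Cd74 and Ciita were larger, at 1.46, 1.16 and 1.16. That of Cd40, in the same list, was smaller there, at 0.68 against 0.84. H2-Aa and Cxcl9 RNA were also found in NK-gated cells, which should lack them, with the same direction: H2-Aa at 287.8 and 1017 CPM and Cxcl9 at 47.8 and 259.8. The part of free RNA in these differences was not tested. The list of activated macrophage genes had 8 of 12 called higher and 1 lower (median 0.70, against 0.17 in C1q macrophages, and -0.261 with the rule on thinned cells, which left 15 and 33 cells). It shares Cxcl9 and Nos2 with the interferon gamma list. The member called lower was Slamf7, a gene of chromosome 1, at 90.5 and 28.3 CPM (-1.67, against -1.315 in C1q macrophages).

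Chemokines and cytokines went both ways, with 12 of 30 called higher and 7 lower. Ccl5, which draws T cells, stood at 283.1 CPM for WT and 1064 for VISTA KO (1.91), and Ccl24, which draws eosinophils, at 31.2 and 101.6 (1.66). Cxcl2, which draws neutrophils, stood at 1501 and 563.1 (-1.41), Cxcl3 at 115.5 and 63.7 (-0.86), Pf4 at 3392 and 2118 (-0.68) and Ccl7, which draws monocytes, at 2218 and 1377 (-0.69). Ccl17, a chemokine of dendritic cells, had a ratio of 3.14, but 1 cell held 96.6% of its 29 WT UMIs and 1 cell 34.4% of its 572 VISTA KO UMIs.

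Hmox1, Spp1 and Cd36 had lower levels in VISTA KO. Hmox1 had a ratio of -0.39 (-0.48 to -0.29), Spp1 of -0.42 (-0.49 to -0.34) and Cd36 of -1.03 (-1.32 to -0.74), and in C1q macrophages these were -0.57, -0.52 and -0.71. Lpl stood at 354.9 CPM for WT and 99.7 for VISTA KO (-1.83). Of 21 heme, iron and oxidative stress genes 6 were called lower and 4 higher (median -0.19). Lower were Hmox1, Gclm (-0.69), Gclc, the catalytic partner of Gclm (-1.12), Srxn1 (-1.02), Txnrd1 (-0.56) and the glutathione reductase Gsr (-0.42). Higher were the regulators Nfe2l2, at 112.4 and 169.6 CPM (0.58), and Bach1, at 76.0 and 116.0 (0.60), beside Mt2 (0.43) and Hebp1 (1.07). Gclc and Hebp1 each held fewer than 100 UMIs in the Mmp12/Mmp13 macrophages of both libraries together. Of 25 lipid genes 3 were called lower, Lpl, Cd36 and the ester hydrolase Nceh1, and 2 higher, Fabp5 (0.57) and the cholesterol exporter Abca1 (0.41). Hypoxia genes had 3 of 28 called higher and 2 lower, among them Vegfa, at 117.6 and 197.0 CPM (0.73), and Nrp1, a co-receptor of VEGF (-0.76).

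The title of the study names STAT3 and polyamines. Of 15 STAT3 pathway genes 5 were called higher and 0 lower (median 0.26, against 0.21 in C1q macrophages). They were the kinase Jak2 (0.60), the interleukin 10 receptor chain Il10ra (0.74), the feedback inhibitors Socs3 (0.79) and Socs1 (0.36) and the interleukin 1 antagonist Il1rn (0.65). Stat3 itself was at 0.26 and was not called. Of 22 arginine, nitric oxide and polyamine genes 3 were called higher and 1 lower. Higher were Nos2, the inducible nitric oxide synthase, at 55.2 and 98.2 CPM (0.81), the arginine transporter Slc7a2 (0.79) and Ass1, which remakes arginine (0.85). Smox, spermine oxidase, was lower (-0.42), while Arg1 (0.12) and the ornithine decarboxylase gene Odc1 (-0.10) were not called.

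Matrix genes were mixed. Mmp14 stood at 78.1 CPM for WT and 134.7 for VISTA KO (0.77) and Timp1, an inhibitor of metalloproteinases, at 18.7 and 59.9 (1.61). Timp2 stood at 202.9 and 143.8 (-0.50), and Mmp19 at 67.6 and 35.9 (-0.92), which turned to 0.167 with at least 10 Mmp12 and Mmp13 UMIs. Of 14 tissue-type macrophage genes 3 were called higher and 2 lower (median 0.22). Lower were Folr2, a folate receptor, at 114.5 and 46.5 CPM (-1.30), and Fcrls, at 77.0 and 23.0 (-1.73). Higher were Mrc1, the mannose receptor (0.33), the chemokine Ccl8 (0.52) and the growth factor Igf1 (1.24). Ccl8 rested on few cells, as 1 cell held 45.2% of its VISTA KO UMIs. Its ratio was 0.060 without the top cell and -0.433 with cells weighted equally. Cell cycle genes had 8 of 17 called lower and 0 higher, but from few cells: Top2a rested on 29 and 10 UMIs, found in 8.08% and 2.91% of cells, and 1 WT cell held 41.4% of them. Of the complement genes, C3 stood at 98.9 and 217.1 CPM (1.12) and Cfb at 232.1 and 379.5 (0.70).

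Other named genes at the ends of the ranking lay partly in a gene family on chromosome 1. Ifi202b stood at 5.20 CPM for WT and 501.3 for VISTA KO (6.33) and Ifi214 at 14.6 and 66.1 (2.09), whereas Ifi213 stood at 112.4 and 3.35 (-4.89), Ifi206 at 133.2 and 10.1 (-3.67) and Ifi211 at 388.2 and 129.4 (-1.58). These interferon-inducible genes are close copies, so reads could have been split between them, and their ratios in C1q macrophages were close, at 6.23, 1.53, -5.71, -3.35 and -1.67. Of 229 chromosome 1 genes tested, 13 were called higher and 13 lower (11.4% called). Over all 3612 genes 7.25% were called, and the share was 13.8% on chromosome 17. Ptprc, which encodes the CD45.1 and CD45.2 alleles, is also on chromosome 1, so a segment carried with the allele and the Vsir genotype cannot be told apart here. Glul, glutamine synthetase (1.76), and Slamf7 (-1.67) lie on chromosome 1 outside this gene family, and the same limit applies to them. Higher genes on other chromosomes were Ly6i (1.97), Tmem176a (1.93), H2-Q6 (1.62), which has close copies, and Zmynd15 (1.61). Lower genes were Wdr89 (-1.92), Rnaset2a (-1.55), and Retnla (-4.64) and Lyz1 (-3.62), of which 1 WT cell held 41.2% and 54.5% of the UMIs.

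**Figure D5:**
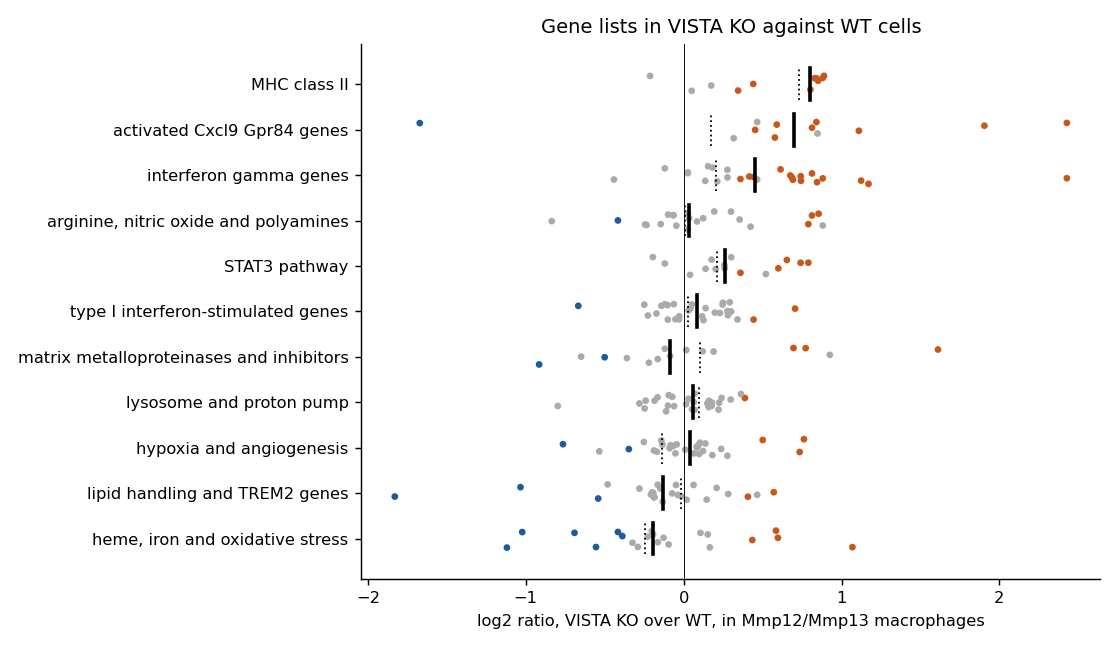
Log2 ratio of VISTA KO over WT in Mmp12/Mmp13 macrophages for the measured genes of 11 lists, each dot a gene, orange where called higher, blue where called lower and grey where neither. Solid bars are list medians and dotted bars the medians of the same genes in C1q macrophages; MHC class II has 8 of 11 genes called higher and the heme list 4 higher and 6 lower.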

How the data were processed

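Sorted CD11b+ tumor cells of 1 WT and 1 VISTA KO gene expression library were used, with the antibody tag counts of the same cells. The deposited matrices hold whole-number UMI counts for 32285 genes and 3 tags, not normalized. The file headers name Cell Ranger 5.0.0 as the software that made these counts. The submitters' processing notes name Seurat 4.0 and the build mm10, with no role for either. The WT library held 10241 barcodes with 61753547 UMIs and the VISTA KO library 15257 barcodes with 80366761.

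Kept barcodes had 200 or more genes, 500 or more UMIs of genes and no more than 10% of them mitochondrial. Doublets were not removed, and no caller was run; leaving out the deepest cells was an alternative, beside other UMI limits, thinning, equal cell weights and other gene filters. Counts were summed per library and group and given per 1000000. Log2 ratios have a pseudocount of 1 UMI per sum and an exact conditional binomial 95% interval. Levels have exact Poisson intervals, shares exact Clopper-Pearson intervals and medians order-statistic intervals. Each group held 1 library, so differences were not tested. The gene ratio method was tested on simulated data. Gene symbols found more than once, 40 in number, were read from their first entry. Sequences came from RefSeq, GRCm38.p6. Python 3.11.15, numpy 2.4.6, scipy 1.17.1, pandas 2.3.3 and matplotlib 3.10.9 were used.

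The cells, the 32 gene lists and the comparisons were chosen with earlier results of these data known. Named genes followed a rule: among genes with at least 100 UMIs found in at least 5% of the Mmp12/Mmp13 macrophages of either library, the 12 highest and 12 lowest VISTA KO over WT ratios, the 15 highest and 10 lowest over C1q macrophages in the less marked library, up to 6 genes per list, Vsir, the rule genes and the genes naming the cells. Rankings had no Gm, Rik, Xist, ribosomal, mitochondrial or Y-linked genes. Genes named beyond it (Gclc, Hebp1, Socs1, Apoe, Odc1, Csf1r, Adgre1, Dcstamp, Atp6v0d2, Top2a, Plau, Plaur, Cdh1, Igf1, the markers at 0 and the genes of cells with Mmp12 alone) were chosen after their values were seen. The gene minimum on the mean of both groups, the lack of exclusions and the top cell left out were alternatives chosen after seeing the data. Some items are not reported here.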

Additional observations from a re-analysis of the deposited data

Results flagged for a closer look

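Among the genes named by rule, 2 were called at 1.5-fold in opposite directions, VISTA KO over WT, in Mmp12/Mmp13 macrophages and in C1q macrophages. Smaller opposite ratios, as of Mt2 (0.43 and -0.36) and Timp2 (-0.50 and 0.16), did not meet that size in both. The difference between the groups was not tested. Ccl17, a chemokine, had a log2 ratio of 3.14 in Mmp12/Mmp13 macrophages and -0.68 in C1q macrophages. It was found in 2.02% of the WT and 9.22% of the VISTA KO Mmp12/Mmp13 macrophages, and 1 WT cell held 96.6% of its UMIs there. Hdc, which encodes the enzyme that makes histamine, had a log2 ratio of 0.96 in Mmp12/Mmp13 macrophages, from 26.0 to 52.2 CPM, and -1.10 in C1q macrophages. Hdc was found in 12.1% and 14.6% of the cells, with 25 and 109 UMIs.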

How the results depend on the processing

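No paired analysis was possible because WT and VISTA KO had 1 library each. The cause was not tested for any value that moved here. Shares of kept cells and of C1q-positive cells (WT, then VISTA KO) were 1.373%, 1.863%, 6.869% and 5.313% with at least 3 Mmp12 and Mmp13 UMIs, and 0.5298%, 0.7266%, 2.65% and 2.072% with at least 10, where 102 genes were higher in VISTA KO and Mmp19 turned to 0.167. With at least 20 C1q UMIs the VISTA KO share of kept cells was 1.156%, and over C1q macrophages Lyz1 turned to -0.189 and Retnla to -0.710. With the rule on cells thinned to 2000 UMIs only 15 and 33 cells remained: shares were 0.1744%, 0.2740%, 0.9696% and 0.8630%, CD11c was 19 in WT, Ly6G 5 and 6 and Ly6C 268 and 538. There 55 genes were higher and 37 lower in VISTA KO, and 51 higher over C1q macrophages. VISTA KO over WT ratios turned for Ccl17 (-0.431), Cd40 (-0.016), Cxcl3 (2.961), Il1rn (-0.972), Isg15 (0.223) and Pirb (-0.175), and ratios over C1q macrophages for Cd200r1 (-0.659), Cxcl3 (-0.943), Lyz1 (-0.874), Mgl2 (-0.814) and Retnla (-3.746). Without cells above the 95th percentile of UMIs (89 and 163 cells left), VISTA KO shares were 1.133% and 3.335%, Ly6G 6, Ly6C 539, 88 genes were higher in VISTA KO and 71 lower over C1q macrophages. With cells weighted equally 107 genes were lower over C1q macrophages and Hspa1b turned to -0.189 for VISTA KO. With at least 20 UMIs per gene, 7850 genes were tested in place of 3612. Of these, 322 were higher and 212 lower in VISTA KO, and 202 were higher and 61 lower over C1q macrophages. Without the top cell of each gene, an alternative chosen after seeing the data, 61 genes were lower over C1q macrophages. In VISTA KO, Lyz1 then turned to -0.320 and Retnla to -0.496 over C1q macrophages, while in WT they were at 2.022 and 1.684. With no exclusions, also chosen after seeing the data, shares of kept cells were 1.962% and 1.724% and the WT share of C1q-positive cells 6.165%, and the ratio of shares of kept cells turned to 0.8786. Under the other settings it ran from 1.233 to 1.571, and that of C1q-positive cells from 0.728 to 0.890. Of 195 list medians recomputed, 7 moved, among them those of MHC class II (1.784) and activated macrophage genes (-0.261) under the thinned rule.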

Other observations

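A further 44 WT cells (0.432% of kept cells) and 86 VISTA KO cells (0.568%) met the Mmp12 and Mmp13 limit and the exclusions but held fewer than 10 C1q UMIs, and belong to no comparison above. Hmox1 stood at 1216 CPM there in WT and 1751 in VISTA KO, Spp1 at 2180 and 2990, Mt1 at 2055 and 2592 and Pf4 at 2315 and 2178. Cd36 stood at 281 and 213, Lpl at 411 and 353 and Gpnmb at 109 and 124, the last from 6 and 23 cells. Ly6c2 stood at 1245 and 1152 CPM, and the median Ly6C tag count was 524.5 and 563.5. Their median depth was 4508 and 4450.5 UMIs, below that of the Mmp12/Mmp13 macrophages. Ccl17 stood at 516 and 593 CPM, from only 5 and 4 cells.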
